A study of Mus musculus with 16 samples.

Results

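Fgf21 and the genes of its receptor system were followed through the livers of 16 female C57Bl6/J mice. They are 6 of the 24082 genes in the table: the hormone gene Fgf21, the co-receptor gene Klb and the receptor genes Fgfr1, Fgfr2, Fgfr3 and Fgfr4. Fgf21 was picked because it was higher with the drug in pair-fed mice, so the values of that comparison are given as a description, and the other 5 genes were taken as the family that receives its signal. All 6 genes passed the filter on low counts, which kept 12522 genes.

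The mice were 9 to 11 weeks old and fell into 4 groups of 4. Pair Vehicle and Pair IMC mice received the Pair diet, a liquid control diet, without or with IMC. EtOH Vehicle and EtOH IMC mice received the Lieber-DeCarli Chronic Ethanol Diet, raised in steps to 6% ethanol by volume, without or with IMC. In the Pair diet maltose dextrin stood in for the ethanol calories. Pair mice were pair-fed and ethanol mice ate freely, so ethanol, carbohydrate and feeding mode cannot be told apart between diets. IMC is iodomethylcholine, a small molecule that blocks the gut bacterial enzyme choline TMA lyase, and was mixed into the liquid diet at 0.06% wt/wt. Vehicle mice received the same diets without the drug, and the labels name no engineered allele. Mice given both IMC and ethanol were reported to eat less and weigh less than mice given ethanol alone, and body weight was also reported to differ with IMC in pair-fed mice, so intake, body weight and drug cannot be told apart on either diet.

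FGF21 is a hormone made chiefly by hepatocytes during fasting, protein shortage, sugar or alcohol intake and cell stress. It acts on cells that carry both β-Klotho, the product of Klb, and an FGF receptor, above all FGFR1 in fat and brain. β-Klotho also pairs with FGFR4 in hepatocytes, where the gut hormone FGF15 uses the pair to hold down bile acid synthesis. FGFR2 and FGFR3 are the other signalling receptors of the family, and ligand binding to any of the receptors activates the ERK kinase cascade.

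Fgf21 (ENSMUSG00000030827) is a short gene on the minus strand of GRCm38, chr7:45613886-45615490. The 250 bases just before its start are chr7:45615491-45615740 on the minus strand of GRCm38.p6 from RefSeq. They are shown because they were searched for motifs of some factors named later with Fgf21, such as ATF4 and ChREBP. Capitals mark the 3 motifs found among the 5 searched on both strands:

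Fgf21 promoter: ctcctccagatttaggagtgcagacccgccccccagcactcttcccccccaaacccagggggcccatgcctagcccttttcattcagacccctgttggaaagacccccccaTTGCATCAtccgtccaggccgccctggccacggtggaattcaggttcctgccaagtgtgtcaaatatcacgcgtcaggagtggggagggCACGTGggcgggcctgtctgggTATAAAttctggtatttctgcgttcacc

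The first run in capitals, TTGCATCA, is the core of a composite element for C/EBP and ATF factors such as ATF4. It lies 139 to 132 bases upstream of the start and occurs in 0.896% of 32817 RefSeq promoter windows of 300 bases (250 before and 50 after the start). The E-box CACGTG, the form bound by ChREBP and related factors, lies 50 to 45 bases upstream and occurs in 7.15% of windows. The TATA box TATAAA lies 28 to 23 bases upstream and occurs in 13.6% of windows. The direct repeat of AGGTCA with 1 base between, an element bound by PPARα, was not matched in the Fgf21 window and occurs in 0.0396% of windows, and the CRE TGACGTCA, found in 1.79%, was not matched either. Among the other members, the Fgfr2 window held CACGTG 28 to 33 bases past the start, while the windows of Klb, Fgfr3 (2 starts) and Fgfr4 held none of the 5 motifs. A match is a run of letters and not evidence of binding. Nor is a miss evidence that a factor does not bind: only exact letters in this window were searched, and the direct repeat is missed in almost all windows.

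Values are rescaled read counts: the deposited normalized counts brought to 1 scale for all 16 libraries, which hold 9632659 to 12601199 reads on genes each. Differences were tested with limma on log2(count + 1) over the 12522 genes, and "called" means a Benjamini-Hochberg adjusted p-value under 0.05. Errors on log2 fold changes are standard errors, and intervals are 95% confidence intervals. Differences between diets are relative to the median gene, and on the deposited scale each is about 0.19 higher. Each of the 7 hepatocyte markers (Alb, Apoa1, Ttr, Tat, Cps1, Hnf4a and Serpina1a) was well above the filter, with a summed count of 910347 to 1713974 per library. In whole liver, fewer cells of a type and less RNA per cell cannot be told apart. Library numbers 1 to 8 hold the Pair IMC and EtOH Vehicle groups and numbers 9 to 16 the other groups, so a difference between libraries numbered early and late cannot be told apart from any comparison of single groups or from the difference of the drug effects. Only the effects averaged over diets or over treatments are balanced for it.

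Fgf21 varied more than any of its receptor genes, from 7.58 to 242 across the 16 livers. In Pair Vehicle the counts were 78.6, 24.3, 37.3 and 34.4 (libraries 10, 12, 14 and 16), with a mean of 43.7 ± 24 (SD, n = 4). In Pair IMC they were 124, 242, 199 and 73.8 (libraries 2, 4, 6 and 8), with a mean of 159.8 ± 75.2 (SD, n = 4). Of the pair-fed mice given IMC, 3 lay above every pair-fed mouse without it, and library 8 lay just below the highest vehicle mouse. This is the comparison Fgf21 was chosen from: the log2 fold change was 1.85, or 3.59-fold.

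EtOH Vehicle mice had the lowest mean Fgf21 count. The counts there were 29.4, 14.9, 7.58 and 9.02 (libraries 1, 3, 5 and 7), a mean of 15.2 ± 9.97 (SD, n = 4), and the fewest reads behind a value were 9. In EtOH IMC they were 24.8, 54.7, 86.1 and 35.7 (libraries 9, 11, 13 and 15), a mean of 50.3 ± 26.8 (SD, n = 4). Library 9 overlapped the vehicle mice, and the other 3 EtOH IMC mice lay above all of them.

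**Figure D1:**
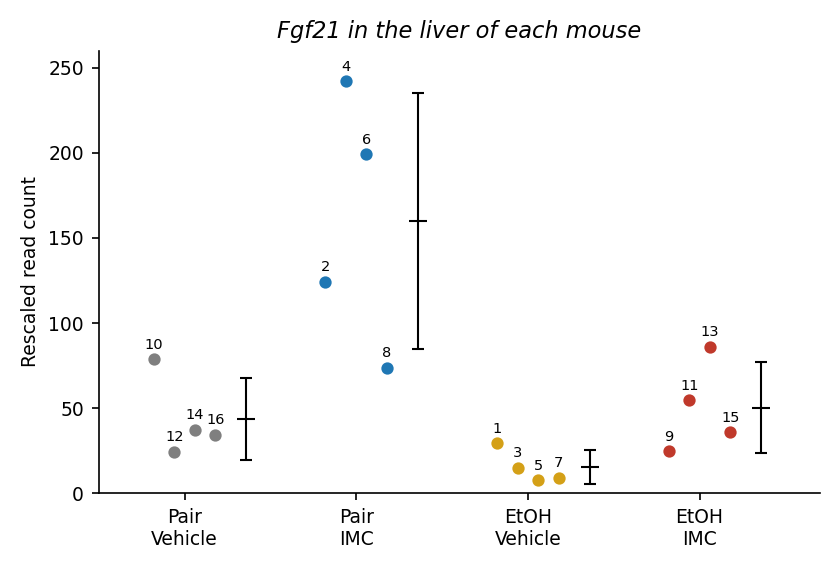
Rescaled Fgf21 read count in each liver, one point per mouse with its library number, with the group mean and SD (n = 4) as a black bar beside the points. Pair IMC reached 242, EtOH Vehicle stayed at or below 29.4, and the 2 drug-treated groups each had 3 of 4 mice above all vehicle mice on the same diet.

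The fold change with IMC in ethanol-fed mice uses none of the libraries from which Fgf21 was picked, and it was tested, with the spread estimated over all 16 libraries. Fgf21 rose by 1.70 ± 0.46 on the log2 scale (3.24-fold, interval 0.73 to 2.66, adjusted p = 0.0143 by limma). Fitted on the ethanol-fed libraries alone the adjusted p was 0.0158. Without library 13, the highest EtOH IMC mouse, the change was 1.39 with an adjusted p of 0.0520. Over all fits that left out a library the adjusted p ranged from 0.0061 to 0.0520, and over the other processing choices that kept Fgf21 from 0.0125 to 0.0274.

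The remaining Fgf21 contrasts share libraries with the pair-fed comparison and are descriptions. Under ethanol the Fgf21 mean was 15.2 against 43.7 without the drug (log2 fold change -1.51) and 50.3 against 159.8 with it (-1.66). In each case 3 of the 4 ethanol-fed mice lay below all pair-fed mice of the same treatment. The drug effect was 1.85 in pair-fed and 1.70 in ethanol-fed mice, a difference of -0.15 with a standard error of 0.65. Averaged over diets, which is balanced over library numbers, the log2 difference with IMC was 1.77, and averaged over treatments that with ethanol was -1.58.

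Per kb of exon, the 6 genes stood in the order Klb, Fgfr4, Fgfr3, Fgfr2, Fgf21, Fgfr1. The mean levels over all libraries were 202 rescaled counts per kb for Klb, 163 for Fgfr4, 152 for Fgfr3, 110 for Fgfr2, 70.7 for Fgf21 and 10.6 for Fgfr1. The ranges of all neighbours in this order overlapped. Klb was above Fgfr4 in 15 of 16 libraries, and Fgfr3 was above Fgfr2 in 15, but Fgfr4 was above Fgfr3 in only 10. Fgf21 moved through the order between groups: its mean per kb was 168 in Pair IMC, next to 166 for Fgfr4, and 16 in EtOH Vehicle, next to 10.5 for Fgfr1. Exon lengths are those of the annotated protein-coding transcripts, from 951 bases for Fgf21 to 5025 for Fgfr1, and other transcript ends would shift these levels.

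**Figure D2:**
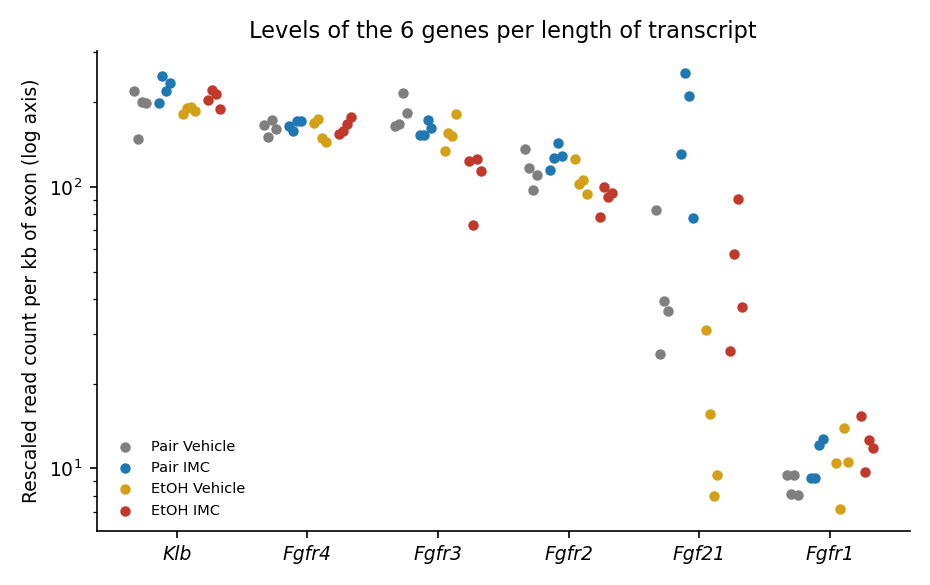
Rescaled read counts per kb of exon on a log axis for the 6 genes in order of their mean, one point per mouse, coloured by group. Fgf21 spans from 7.97 to 254, while Fgfr4 stays between 144 and 176.

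Klb (ENSMUSG00000029195, chr5:65348314-65384007) encodes β-Klotho, the co-receptor without which FGF21 does not signal. Its counts were 772, 524, 710 and 703 in Pair Vehicle and 701, 875, 774 and 828 in Pair IMC. They were 642, 676, 679 and 655 in EtOH Vehicle and 719, 783, 759 and 669 in EtOH IMC. The EtOH Vehicle mice were close together, and 3 of 4 EtOH IMC mice lay above them. Klb did not pass the test with IMC in ethanol-fed mice (log2 fold change 0.14, interval -0.08 to 0.36, adjusted p = 0.351). Averaged over diets the difference with IMC was 0.19 ± 0.07 (interval 0.04 to 0.34, adjusted p = 0.0601), and the adjusted p was 0.0306, 0.0382 and 0.0460 without library 10, 2 and 15. The ethanol difference averaged over treatments was -0.07 (interval -0.22 to 0.09, adjusted p = 0.543).

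Fgfr4 (ENSMUSG00000005320, chr13:55152640-55168759), the main FGF receptor of hepatocytes, was the steadiest of the 6 genes. The group means were 539 ± 31.5 in Pair Vehicle, 551 ± 21.9 in Pair IMC, 528 ± 48.5 in EtOH Vehicle and 545 ± 33.3 in EtOH IMC (SD, n = 4 each). The highest library, 586, was 1.22 times the lowest, 479. IMC in ethanol-fed mice gave a log2 difference of 0.05 (interval -0.12 to 0.21), ethanol in vehicle mice -0.03 (-0.20 to 0.14) and ethanol in IMC mice -0.02 (-0.18 to 0.15). These intervals leave room for changes of up to about 0.21 either way. The size of the ethanol differences depends on the scaling: on the deposited scale, on which the median gene was 0.19 higher in ethanol-fed mice, Fgfr4 averaged over treatments was 0.17 higher with ethanol (adjusted p = 0.0247).

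Fgfr3 (ENSMUSG00000054252, chr5:33721724-33737068) was the receptor gene that fell with IMC. Its counts were 696, 708, 914 and 779 in Pair Vehicle, 650, 647, 732 and 686 in Pair IMC, 568, 660, 644 and 768 in EtOH Vehicle and 522, 310, 533 and 484 in EtOH IMC. All 4 EtOH IMC mice lay below all other 12 mice of the study. In ethanol-fed mice Fgfr3 fell by 0.54 on the log2 scale with IMC, with a standard error of 0.14 (interval -0.84 to -0.23, adjusted p = 0.0138 by limma). Without library 11, the lowest mouse, the change was -0.35 (adjusted p = 0.0308), and without EtOH Vehicle library 7, the highest of its group, it was -0.46 (adjusted p = 0.0501). Averaged over diets Fgfr3 fell by 0.36 (standard error 0.10, adjusted p = 0.0137).

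Ethanol also went with lower Fgfr3. In IMC mice the log2 change with ethanol was -0.58 ± 0.14 (interval -0.89 to -0.28, adjusted p = 0.0111), and averaged over treatments it was -0.41 ± 0.10 (adjusted p = 0.00731). In vehicle mice the difference was -0.23 and did not pass the test (interval -0.53 to 0.07, adjusted p = 0.309). The difference between the drug effects on the 2 diets was -0.35 (interval -0.78 to 0.07, adjusted p = 0.425), so an effect of IMC limited to 1 diet was not shown. On the deposited scale the averaged ethanol change was -0.22 with an adjusted p of 0.0956. Part of the Fgfr3 gene is overlapped on the other strand by G630022F23Rik, for which no count was used here.

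Fgfr2 (ENSMUSG00000030849, chr7:130162451-130266263) had its highest counts in Pair IMC and its lowest in EtOH IMC. The counts were 655, 560, 469 and 527 in Pair Vehicle and 550, 606, 684 and 616 in Pair IMC. They were 604, 493, 508 and 454 in EtOH Vehicle and 374, 481, 442 and 455 in EtOH IMC. Among mice given IMC the 2 diets did not overlap, and Fgfr2 fell by 0.49 on the log2 scale with ethanol (standard error 0.11, interval -0.72 to -0.25, adjusted p = 0.00779). Averaged over treatments it fell by 0.29 (adjusted p = 0.0119), a call lost on the deposited scale (-0.10, adjusted p = 0.314). IMC in ethanol-fed mice gave -0.23 (interval -0.47 to 0.0076, adjusted p = 0.157), with 2 of 4 mice below the vehicle range. The drug effects on the 2 diets differed by -0.39, with an unadjusted p of 0.0261 and an adjusted p of 0.252. On the deposited scale Fgfr2 in IMC mice was -0.30 with ethanol (adjusted p = 0.0564), past no threshold.

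Fgfr1 (ENSMUSG00000031565, chr8:25518759-25575718), the receptor through which FGF21 mainly acts outside the liver, had few reads, 34 to 90 per library. Its group means were 44.2 ± 4.08 in Pair Vehicle, 54.4 ± 9.22 in Pair IMC, 52.9 ± 13.8 in EtOH Vehicle and 62.1 ± 11.6 in EtOH IMC (SD, n = 4 each). No tested comparison called it. Its differences were 0.24 with IMC in ethanol-fed mice (interval -0.16 to 0.65), 0.26 with IMC averaged over diets (-0.02 to 0.55) and 0.20 with ethanol averaged over treatments (-0.08 to 0.49). At this depth a change of 0.5 on the log2 scale could have been missed. The antisense gene Gm16159 overlaps its exons and had 1 read in all libraries together.

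**Figure D3:**
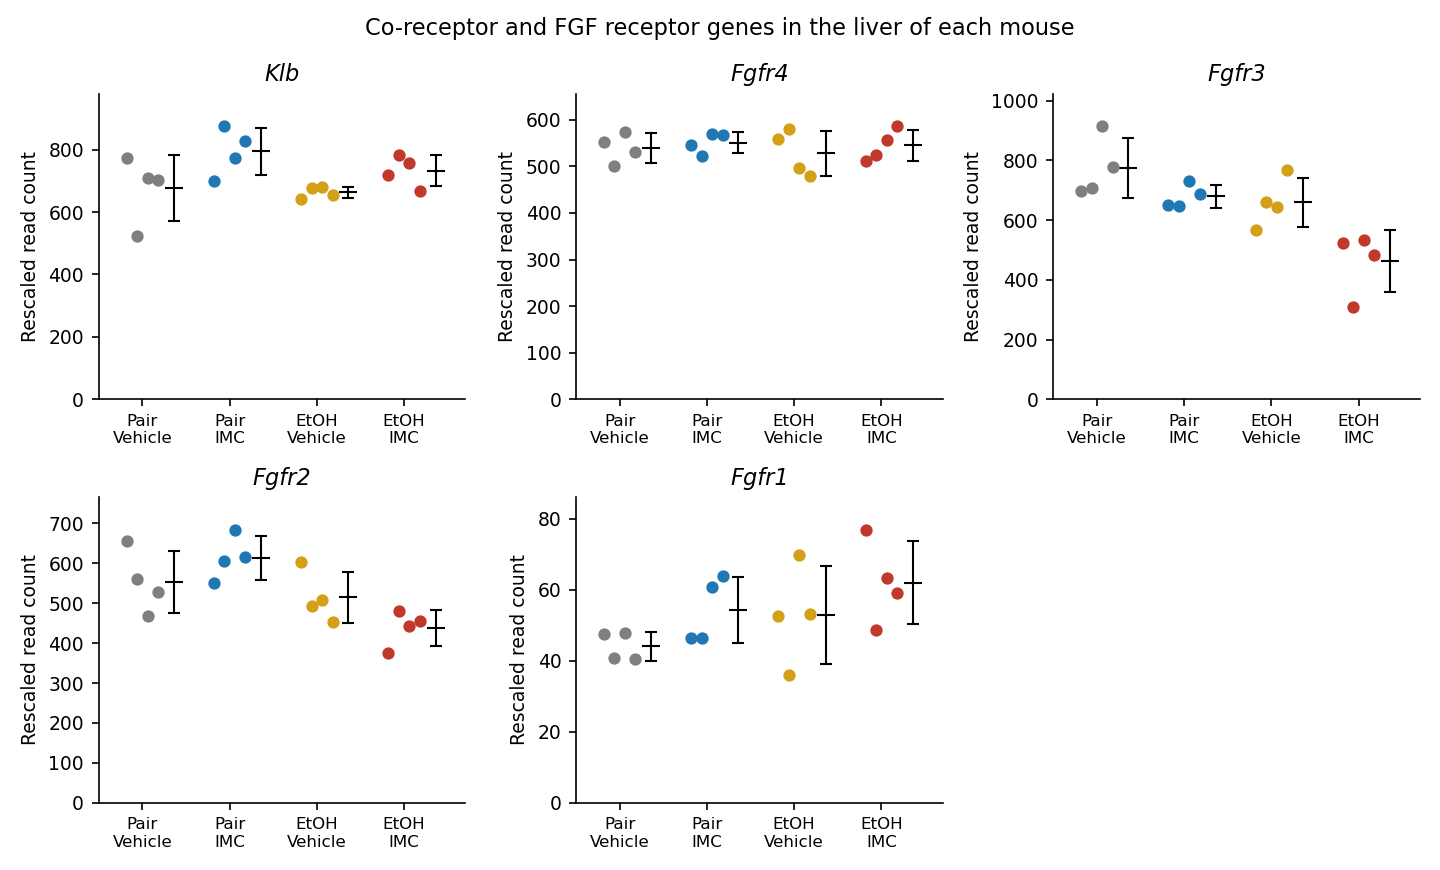
Rescaled read counts of Klb, Fgfr4, Fgfr3, Fgfr2 and Fgfr1 in each liver, one point per mouse in order of library number within its group, with the group mean and SD (n = 4) beside the points. The 4 EtOH IMC mice lie lowest for Fgfr3, between 310 and 533, while Fgfr4 lies between 479 and 586 in all groups.

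Counted together, 2 of 6 members were called with IMC in ethanol-fed mice, Fgf21 higher and Fgfr3 lower, where 21.5% of all tested genes were called, 10.4% higher and 11.1% lower. Fgfr3 was also the only member whose groups were apart there, against 12.9% of all genes in that direction. With IMC averaged over diets 1 of the 5 receptor and co-receptor genes was called, Fgfr3 lower (28.2% of all genes, 14% lower), and the difference of the drug effects called 0 of 5 (1.11% of all genes), with 1 of 5 at an unadjusted p under 0.05, Fgfr2, against 15.3% of all genes at that p. The limma test of ethanol in vehicle mice called 0 of 5, none of them at an unadjusted p under 0.05, which 27.8% of all genes reached (11.9% of all genes, 6.35% higher and 5.56% lower). On whole reads edgeR and DESeq2 also called 0 of 5 in both. In IMC mice it called 2 of 5 (16.5% of all genes, 8.61% lower), Fgfr2 and Fgfr3, and these were also the 2 whose groups were apart (9.84% of all genes in that direction). Averaged over treatments it called 2 of 5, the same Fgfr2 and Fgfr3, against 26.1% of all genes, 13.2% lower. Which members that last comparison called depended on the scaling: on the deposited values both calls were lost and the 2 called were Fgfr1 (0.39 higher with ethanol, adjusted p = 0.0280) and Fgfr4 (0.17 higher, adjusted p = 0.0247). In the pair-fed comparison 9.49% of all genes were called and 14.3% had groups apart, and nothing is read from it for the members. The counts were not tested against these backgrounds, and most lie within 1 gene of them.

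**Figure D4:**
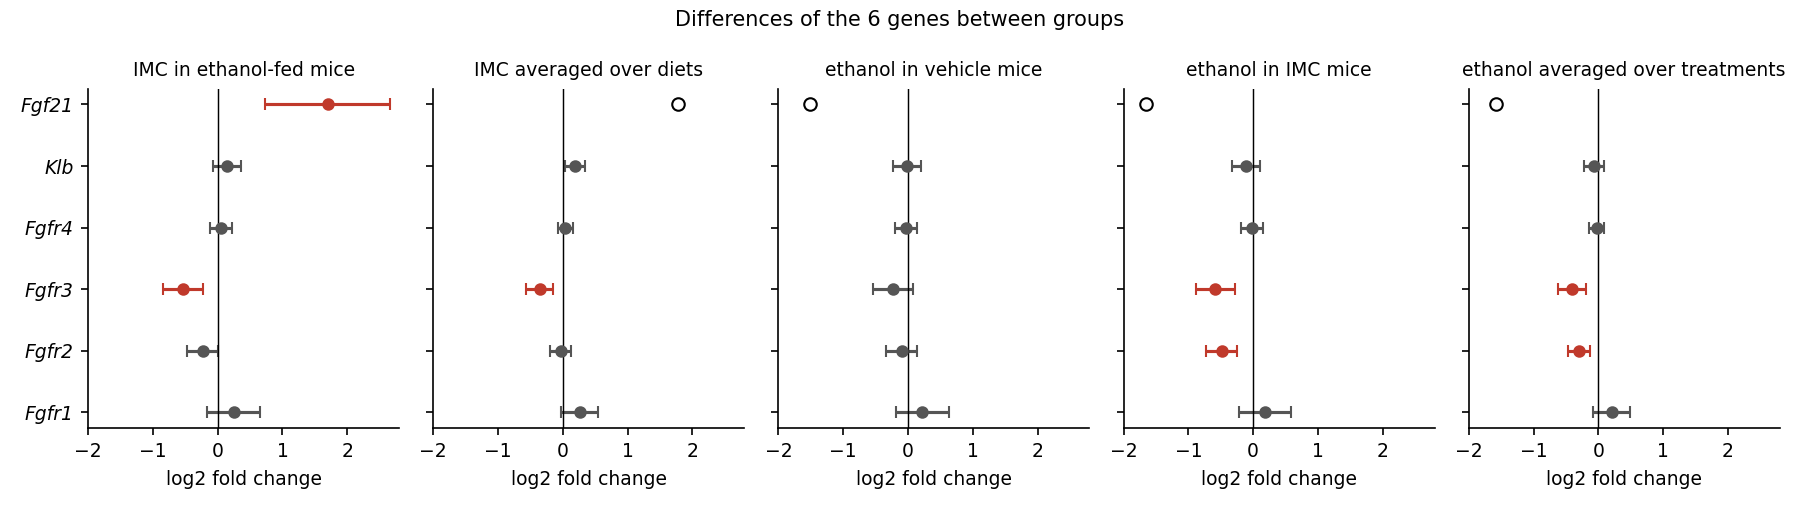
log2 fold changes of the 6 genes in 5 comparisons, with 95% confidence intervals where a comparison was tested. Red marks an adjusted p under 0.05, grey a test that was not passed, and open circles Fgf21 values given without a test. Fgf21 at 1.70 lies farthest from 0 of all tested values, and the receptor genes stay within -0.58 and 0.26.

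Of the 21 other FGF ligand genes, 7 had no read in any library and 3 passed the filter. Fgf15, the gut hormone that signals through FGFR4 and β-Klotho, had 3 reads in all 16 livers together. Fgf1, a growth factor that binds all FGF receptors, had the most reads of the ligands, with means of 1215 ± 199 in Pair Vehicle, 1105 ± 113 in Pair IMC, 1852 ± 58.9 in EtOH Vehicle and 1114 ± 96.9 in EtOH IMC. It rose by 0.62 with ethanol in vehicle mice (standard error 0.11, adjusted p = 0.00179) and fell by 0.74 with IMC in ethanol-fed mice (standard error 0.11, adjusted p = 0.000161), with the groups apart in both. In EtOH Vehicle, then, Fgf1 was at its highest where Fgf21 was at its lowest. The test of whether the IMC effect on Fgf1 differed between diets gave -0.61 with an adjusted p of 0.0603. Fgf11, an intracellular relative that is not secreted, rose from 8.17 to 24.6 with ethanol in vehicle mice (adjusted p = 0.00895).

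Among 19 receptor partner genes, 16 were tested. With IMC in ethanol-fed mice 0 rose and 3 fell, and the median log2 difference was -0.07 against -0.0015 for all genes. With ethanol in vehicle mice 2 rose and 2 fell. Sdc1, which encodes the heparan sulfate carrier syndecan-1, was the 1 of them called with its groups apart in both: it rose from 3144 ± 307 to 4924 ± 234 with ethanol (adjusted p = 0.00126) and fell to 3641 ± 505 with IMC (adjusted p = 0.00628). Fgfrl1, a receptor of the family without a kinase, fell by 0.64 with ethanol in vehicle mice (adjusted p = 0.0223), though the groups overlapped. Kl, the gene of α-Klotho, had 2 reads in all, and Fap, whose product cleaves FGF21 in blood, had 73 and was not tested. The shares of all genes called are the background for this list and those below. They were 10.4% higher and 11.1% lower with IMC in ethanol-fed mice. For ethanol in vehicle mice they were 6.35% and 5.56%. No list was tested against them.

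The 28 signalling genes below the receptors were all tested. With IMC in ethanol-fed mice 5 rose and 1 fell, with a median of 0.06. Araf, a kinase at the head of the ERK cascade, fell from 925 ± 32.6 to 763 ± 38.5 (adjusted p = 0.0188). With ethanol in vehicle mice limma called 0 of the 28, and 6 had an unadjusted p under 0.05, against 27.8% of all genes. The adaptor genes Frs2 and Grb2 and the ERK kinase gene Mapk3 did not pass a test of IMC or ethanol between any 2 groups, with differences from -0.12 (Grb2 with IMC in pair-fed mice) to 0.24 (Mapk3 with ethanol in IMC mice).

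Genes that the ERK cascade switches on, and that feed back on it, went different ways. Of 23 listed, 20 were tested. With IMC in ethanol-fed mice 4 rose and 1 fell (median 0.19), and with ethanol in vehicle mice 3 rose and 2 fell (median -0.03). Spry4, a feedback inhibitor of receptor kinase signalling, was 112 ± 9.85 in Pair Vehicle, 44.7 ± 2.53 in Pair IMC, 285 ± 33.2 in EtOH Vehicle and 161 ± 12.7 in EtOH IMC. It rose by 1.34 with ethanol in vehicle mice (standard error 0.11, adjusted p = 2.58e-06) and fell by 0.82 with IMC in ethanol-fed mice (standard error 0.11, adjusted p = 8.64e-05), with no overlap in either. Fgf21 and Spry4 thus stood at opposite ends in Pair IMC and in EtOH Vehicle.

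Dusp6, a phosphatase that removes the activating phosphates from ERK, had means of 661, 484, 887 and 1037 in Pair Vehicle, Pair IMC, EtOH Vehicle and EtOH IMC. It did not pass the tests of ethanol in vehicle mice (0.46) or of IMC in ethanol-fed mice (0.23), and rose by 1.15 with ethanol in IMC mice (adjusted p = 0.000675). The ERK-driven transcription factor gene Etv5 rose with ethanol in both, by 0.79 (adjusted p = 0.0179) and 1.44 (adjusted p = 0.000241). Spry2 was low, at 7.81 to 21.0 per group, and Egr1 varied widely within groups. Neither passed the test of IMC in ethanol-fed mice. Averaged over diets, Spry2 was lower with IMC (-0.90, adjusted p = 0.0139 by limma). Averaged over treatments, Egr1 was lower with ethanol (-1.12, adjusted p = 0.0233 by limma). Myc rose from 20.9 ± 4.71 to 57.9 ± 13.4 with IMC in ethanol-fed mice (adjusted p = 0.00154). Junb fell with ethanol in vehicle mice from 413 ± 355 to 87.6 ± 19.3 (adjusted p = 0.00938), from a group whose own spread was very large.

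Of 25 genes for factors known to act on the Fgf21 gene, 1 rose and 6 fell with IMC in ethanol-fed mice (median -0.06), and 1 rose and 2 fell with ethanol in vehicle mice (median -0.04). Ppara, the fasting-responsive receptor that drives Fgf21, fell by 0.50 with IMC in ethanol-fed mice, from 1177 ± 133 to 840 ± 147 (adjusted p = 0.0199), in the comparison in which Fgf21 rose. It also fell with ethanol, where Fgf21 was lower as well: by 0.48 in vehicle mice (adjusted p = 0.0378), with overlap of the groups, and by 0.54 in IMC mice (adjusted p = 0.0154). Mlxipl, the gene of the sugar-responsive factor ChREBP, fell by 0.57 with IMC in ethanol-fed mice (adjusted p = 0.00475). Nr1h4, the bile acid receptor FXR, fell with ethanol in vehicle mice from 1519 ± 298 to 1059 ± 81.5 (adjusted p = 0.0102) and rose with IMC to 1411 ± 101 (adjusted p = 0.0174). Esr1, the oestrogen receptor, fell from 578 ± 49.7 to 323 ± 52.4 with IMC in ethanol-fed mice (adjusted p = 0.00236). Creb3l3, Atf4 and Nr0b2 did not pass the test there, at -0.11, 0.30 and 0.05.

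The targets of these factors were counted separately. Of 30 PPARα target genes, 2 rose and 6 fell with IMC in ethanol-fed mice (median -0.21), and 1 rose and 6 fell with ethanol in vehicle mice (median -0.13). Cyp4a31, a fatty acid hydroxylase gene, rose from 105 ± 29.6 to 244 ± 134 with IMC (adjusted p = 0.0314), and Cidec, a lipid droplet gene, fell from 43.6 ± 11.6 to 24 ± 7.27 with ethanol (adjusted p = 0.0383). Fgf1 stands in this list too and was its largest fall with IMC among the genes called, and the 1 gene called higher with ethanol.

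Of 27 ATF4 target genes 24 were tested. With IMC in ethanol-fed mice 5 rose and 2 fell (median 0.28), against 10.4% and 11.1% of all genes. Asns, asparagine synthetase, rose from 8.15 ± 4.24 to 26.5 ± 4.82 (adjusted p = 0.00531), while the serine pathway gene Shmt2 fell from 2787 ± 229 to 2136 ± 247 (adjusted p = 0.00913). With ethanol in vehicle mice 1 rose and 2 fell (median 0.10). Cth, which makes cysteine, rose from 4858 ± 375 to 7829 ± 850 (adjusted p = 0.0134), and the translation inhibitor gene Eif4ebp1 fell from 299.6 ± 43.0 to 220.2 ± 21.4 (adjusted p = 0.0211).

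Bile acid synthesis lies downstream of FGFR4 and β-Klotho, and the list of bile acid genes also holds regulators such as Nr1h4 and Hnf4a. With IMC in ethanol-fed mice 3 of 10 rose, Nr1h4, Hnf4a and Cyp27a1, and 3 fell, Cyp7a1, Cyp8b1 and Slc10a1 (median -0.07). The bile acid synthesis genes thus went both ways: Cyp27a1 rose from 3236 ± 280 to 3976 ± 398 (adjusted p = 0.0370), though the groups overlapped. With ethanol in vehicle mice 0 rose and 1, Nr1h4, fell. Cyp7a1, the rate-limiting enzyme of bile acid synthesis, was 2117 ± 1557 in EtOH Vehicle and 677 ± 387 in EtOH IMC and fell by 1.56 (adjusted p = 0.0263), though the groups overlapped. Cyp8b1, which sets the cholic acid share, fell from 2873 ± 444 to 431 ± 218, by 2.92 on the log2 scale (standard error 0.35, adjusted p = 3.60e-05). On the Pair diet its means were 1827 ± 227 and 2026 ± 718. Hnf4a, a master factor of hepatocytes, rose from 7982 ± 1055 to 12232 ± 837 (adjusted p = 0.00298). The receptor genes of this axis, Fgfr4 and Klb, were not called in the same comparison.

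**Figure D5:**
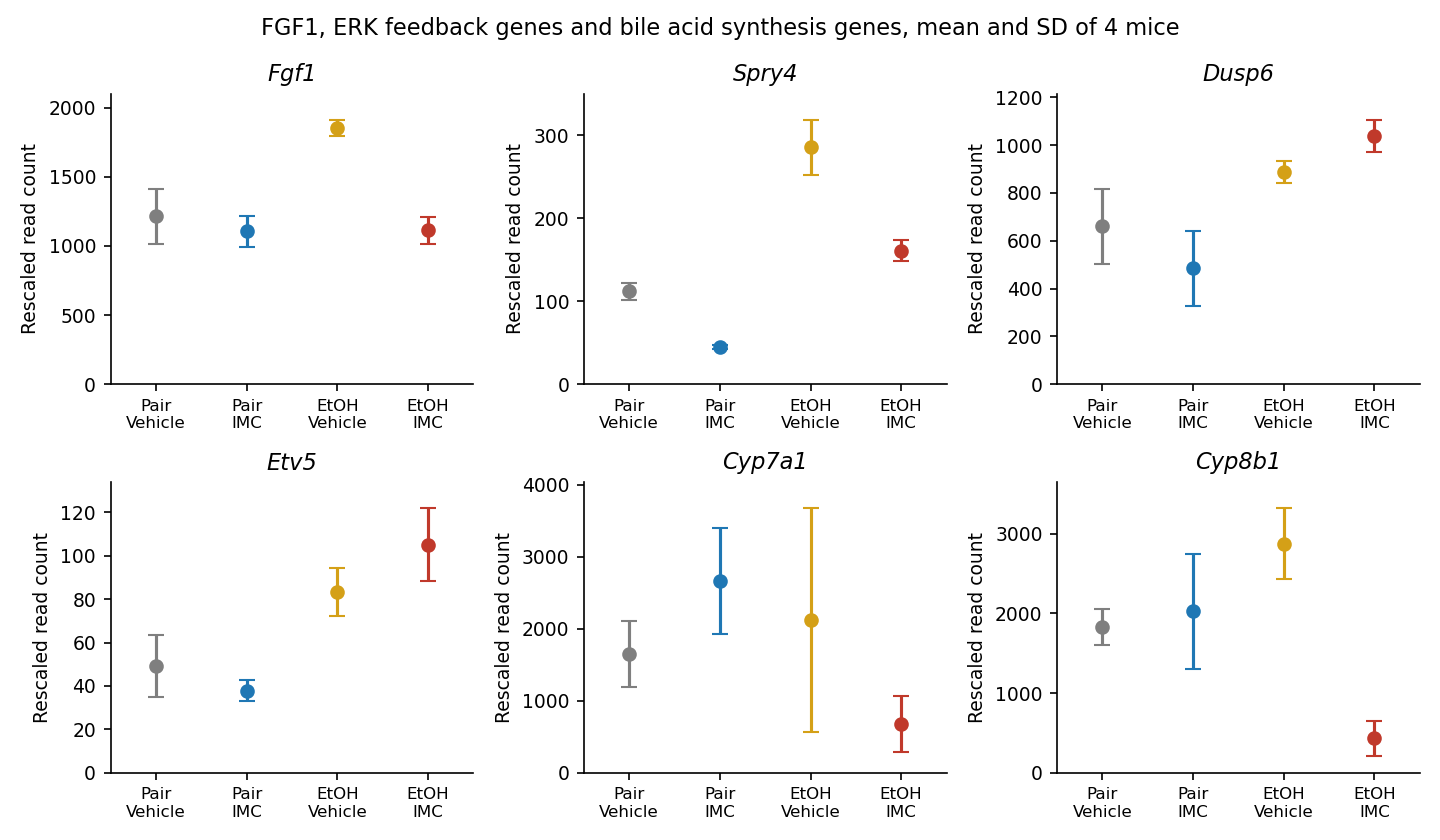
Group means and SDs (n = 4) of rescaled read counts for Fgf1, the ERK feedback genes Spry4, Dusp6 and Etv5, and the bile acid synthesis genes Cyp7a1 and Cyp8b1. Fgf1 and Spry4 peak in EtOH Vehicle, at 1852 and 285, and Cyp8b1 drops to 431 in EtOH IMC.

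The genes whose levels tracked Fgf21 most closely over the 16 libraries, by Pearson's r of log2(count + 1), were Gclm (0.92), Lrrfip2 (0.92), Ppp2cb (0.91), Kcmf1 (0.91) and Eif5 (0.91). These coefficients are descriptions from the same livers, which share their group means. With the group means taken out they were 0.76 for Gclm, which encodes a subunit of the glutathione-making ligase, 0.60 for Lrrfip2, 0.57 for Ppp2cb, 0.68 for Kcmf1 and 0.64 for Eif5, a translation initiation factor gene. Gclm was 2761 ± 240 in Pair Vehicle, 3777 ± 540 in Pair IMC, 2461 ± 122 in EtOH Vehicle and 3108 ± 299 in EtOH IMC, the same order of groups as for Fgf21.

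For the receptor genes the closest were Phlpp2 (0.86), Socs7 (0.85) and Tbcel (0.84) for Klb, and Mansc1 (0.89), Aktip (0.87) and Nrg1 (0.85) for Fgfr1. They were Chkb (0.86), 1700096K18Rik (0.84) and Slc17a4 (0.84) for Fgfr2, Adamdec1 (0.91), Tomm40l (0.88) and Pex26 (0.88) for Fgfr3, and Cdk10 (0.78), Ppil3 (0.75) and Abraxas2 (0.73) for Fgfr4. Among the members themselves the highest coefficient was 0.65, between Fgf21 and Klb, followed by 0.52 between Fgf21 and Fgfr2. With Fgfr3 Fgf21 had a coefficient of -0.06.

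Cells other than hepatocytes were followed by marker lists, and their part in the results was not tested. The exocrine pancreas also makes FGF21, and traces of it can come with liver. Of its 15 markers, 9 had no read in any library (among them Prss1, Cela3b, Cpa1, Cpb1, Pnlip, Amy2a5, Cel and Clps), and most of the sum was Cela1, at 77.8 to 112 per group. The summed count was 131 to 196 in Pair Vehicle, 77.4 to 100.0 in Pair IMC, 92.7 to 168 in EtOH Vehicle and 67.5 to 139 in EtOH IMC. In this sum each Pair IMC liver lay below each Pair Vehicle liver. Single markers differed in direction. Cela2a, with 52 reads in all, was highest in Pair IMC, as Fgf21 was: its mean was 10.3 there and 0.76 in Pair Vehicle. Its means were 0.90 in EtOH Vehicle and 1.54 in EtOH IMC. From Pair Vehicle to Pair IMC, Ctrb1 went from 24.7 to 0.74 and Reg1 from 35.4 to 0. In Pair Vehicle, library 10 had both the highest Fgf21 count, 78.6, and the highest sum of all livers, 196. In EtOH IMC, library 13 had the highest Fgf21 count and a sum of 75.2, and library 15 had the highest sum and an Fgf21 count of 35.7.

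Fgfr2 and Fgfr3 are also made by bile duct cells. All 8 of their markers had reads, and 7 reached a mean of 10 in a group. Their sum was 935 to 1454 in Pair Vehicle, 846 to 923 in Pair IMC, 762 to 1064 in EtOH Vehicle and 715 to 912 in EtOH IMC, with EtOH IMC at the low end. Stellate cells carry Fgfr1, and their 8 markers, all with reads, summed to 3173 to 4402, 3243 to 4067, 4592 to 5408 and 3055 to 4071 in the 4 groups in the same order, highest in EtOH Vehicle. Fgfr1 had its highest mean in EtOH IMC, as did the stellate markers Des (104) and Hgf (213). The other stellate markers had their highest mean in EtOH Vehicle. The sums for the 7 sinusoidal endothelial markers (3141 to 4260 over all libraries) overlapped between all groups. Those for the 7 Kupffer cell and macrophage markers ran from 2089 to 6054 and overlapped too, except that the highest Pair IMC liver (3451) lay just below the lowest EtOH Vehicle liver (3453).

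Of 11 intestine markers 10 were in the table, Cdx1 and Cdx2 had no read, and the sum, mostly Fabp2, ran from 333 to 1432. Of 6 adipose markers only Car3, which hepatocytes also make, reached a mean of 10 in a group. The adipose sum, which is almost all Car3, was 12227 to 22023 in Pair Vehicle, 2715 to 9492 in Pair IMC, 19730 to 21750 in EtOH Vehicle and 2542 to 5804 in EtOH IMC, lower with IMC on both diets.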

How the data were processed

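RNA from the livers of 16 mice, labelled as separate samples, was sequenced with a directional Illumina TruSeq kit. Per the labels the authors used Trim Galore, FastQC, STAR on mm10 and edgeR. The read counter is not given in the sources used here. The deposited values are a signal, namely gene counts over a library size factor. Divided by the worth of a single read, 100% of them came within 0.01 of whole reads in every library, and 1 read was worth 0.906 to 1.18. In EtOH IMC library 15 that value was 1.01, the closest to 1, so small values there lie near whole numbers even undivided. The methods name upper quantile normalization, but the size factors looked set within each diet: the median gene was 0.19 higher on the log2 scale in ethanol-fed mice. The 16 columns were therefore rescaled by a median ratio over 13121 genes (factors 0.94 to 1.08), after which that shift was -0.0026. The table's 27212 rows hold 24082 genes.

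Genes reaching a rescaled value of 10 in 4 or more libraries entered limma 3.58.1 (R 4.3.3) as log2(value + 1), so fold changes of low genes are understated. The fit had a mean per group, empirical Bayes with a trend, 16 libraries sharing the spread, two-sided tests and Benjamini-Hochberg adjustment over the 12522 genes. It was tested on simulated data. Where labels name no separate cultures or cages, p-values measure the spread between these mice. The paper reports diet intake by cage, and the labels do not say which of these mice shared one. Mice of a group may therefore not be independent. Alternatives were the deposited values, pseudocounts of 0.1 and 5, no filter, a mean of at least 100, only the libraries of a comparison, edgeR 4.0.16 with TMM or upper quartile and DESeq2 1.42.0 on recovered reads, and each library left out.

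The members and the 8 gene lists and 8 marker lists were chosen with earlier results of these data known. Genes named are the members, 21 preset genes of the axis, the largest rise and fall per list with groups apart, and the closest genes by correlation (5 for Fgf21, 3 for each other member). Genes named beyond these (Fgf11, the markers and the genes overlapping a member) were named for their counts. Cyp27a1 and Slc10a1 were named to complete the calls of their list. A few genes that the rule or the lists cover are not reported here. Gene positions are from GENCODE vM21 and promoters from RefSeq. An Fgfr1 promoter was not used here. Plots were made with Python 3.11.15.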

Additional observations from a re-analysis of the deposited data

How the results depend on the processing

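Leaving out a library, the number of members called with IMC in ethanol-fed mice ran from 1 to 2, with 1 without EtOH IMC library 13 (Fgf21 lost) or EtOH Vehicle library 7 (Fgfr3 lost), and with IMC averaged over diets from 1 to 2, with 2 without library 10, 2 or 15 (Klb gained). With a mean of at least 100 the first count was 1, since Fgf21 falls below that filter. On the deposited values, which carry the shift of 0.19 between diets, 1 member was called with ethanol in IMC mice, and uncalled ethanol differences changed sign: in vehicle mice to 0.17 (Klb), 0.089 (Fgfr2) and 0.16 (Fgfr4), in IMC mice to 0.077 (Klb) and 0.17 (Fgfr4), and averaged to 0.13 (Klb) and 0.17 (Fgfr4). There Fgfr1 averaged over treatments was 0.39 (adjusted p = 0.0280), while Fgfr2 was -0.10 (adjusted p = 0.314). With edgeR's upper quartile, Fgfr4 was 0.019 in IMC mice and 0.0067 averaged.

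Values close to 0 also changed sign when a library was left out. For the difference of the drug effects, the fits ran from -0.17 to 0.019 for Klb, -0.21 to 0.11 for Fgfr1 and -0.032 to 0.060 for Fgfr4. For IMC averaged over diets Fgfr2 ran from -0.074 to 0.0066. With ethanol, Klb ran from -0.13 to 0.052 and Fgfr4 from -0.078 to 0.014 in vehicle mice, and Fgfr4 from -0.053 to 0.011 in IMC mice. The IMC effects on Fgf21 and Fgfr3 in ethanol-fed mice kept their direction in all fits.

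Over all genes, the calls on the deposited values were 3000 for ethanol in vehicle mice (93.4% higher), against 1491 (53.3% higher), 3624 in IMC mice (87.8% higher), against 2064 (47.8% higher), and 5222 averaged (90.6% higher), against 3273 (49.6% higher). For IMC in pair-fed mice 691 genes were called with its own libraries only, against 1188, and 537 to 1442 with a library left out, the lowest without library 4 and 542 without library 6. For the difference of the drug effects there were 80 with no filter and 339 by DESeq2, against 139, and 54 to 164 with a library left out. Ethanol in vehicle mice ran from 807 (without library 5) to 1595, with 975 without library 14, and ethanol in IMC mice from 1369 (without library 15) to 2217. No cause of these moves was tested beyond the shift itself. No paired analysis was possible because the labels do not say which mice of different groups were matched. With 4 mice a group, differences of about 0.2 for Fgfr4 and 0.6 for Fgfr1 on the log2 scale lie within the intervals.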
